A study of Mus musculus with 10 samples.

Results

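The mitochondrial ribosomal protein genes of C2C12 cells were examined after knockdown of *Fndc1*. Members were the rows of the deposited gene table whose transcript types include protein_coding and whose symbol is Mrpl or Mrps followed by a number, with or without a final letter a, b or c. The rule selected 78 of 55359 genes, 49 with an Mrpl and 29 with an Mrps symbol, spread over 17 chromosomes. For 10 of them protein_coding is the sole transcript type listed, and for the others it stands beside further types. The mouse myoblast line C2C12, which fuses into myotubes in low serum, received 100 nM of siRNA, directed against *Fndc1* in the si-*Fndc1* group and scrambled in the si-Control group. *Fndc1* encodes a secreted fibronectin type III domain protein. Per the labels, all cells were grown in 20% FBS and collected 4 days into differentiation in medium with 2% horse serum, whereas the series description gives 48 h after transfection. Both groups had 5 libraries of mRNA in the table. The paper's methods speak of 4 libraries without naming them, and all 10 were used. No label states that the libraries came from separate cultures, so the p-values measure the spread between these libraries.

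Mitochondria translate the few proteins encoded by their own genome on a ribosome of their own. Its large subunit joins amino acids and its small subunit reads the messenger RNA. The ribosomal RNAs come from mitochondrial DNA, and all the proteins are encoded in the nucleus, made in the cytosol and imported. Many of these proteins descend from bacterial ribosomal proteins and others are found only in mitochondrial ribosomes. In skeletal muscle, which depends on oxidative phosphorylation, the products of this ribosome are core subunits of the respiratory chain and the ATP synthase. Symbols follow history rather than position. The products of *Mrps18a* and *Mrps30* sit in the large subunit despite their names, and the product of *Mrps36* is now known as a component of the 2-oxoglutarate dehydrogenase complex. With these assignments, 51 members belonged to the large subunit, 26 to the small subunit and 1, *Mrps36*, to neither.

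*Fndc1* itself was measured first. Its FPKM, the read count scaled by transcript length and library size, was 26.7, 24.7, 28.7, 29.6 and 29.2 in si-Control replicates 1 to 5. In si-*Fndc1* it was 20.4, 23.5, 20.8, 21.1 and 18.7. The groups did not overlap, and the mean of 20.9 ± 1.70 (SD, n = 5) in si-*Fndc1* was 0.752 times the 27.8 ± 2.04 (SD, n = 5) of si-Control (two-sided exact permutation test, p = 0.00794). From the counts its log2 fold change was -0.40 (edgeR adjusted p = 0.000934), and -0.22 (edgeR adjusted p = 0.0104) when a trend with GC content and length was removed from every library. Libraries of si-Control held 66771605 to 75995168 counts each, and those of si-*Fndc1* held 56332844 to 72839369. Every member was counted at least 189 times in every library. Counting error was not compared with the spread between libraries member by member. Myogenic and contractile transcripts marked the cells as muscle cells, with 10 markers summing to 11000 to 12500 CPM (counts scaled to the size of the library) in si-Control and to 10300 to 12300 in the knockdown. Transcripts of liver, a tissue the labels do not name, were also present. The 25 liver transcripts examined summed to 7.01 to 25.2 CPM in si-Control libraries and 136 to 450 CPM in those of si-*Fndc1*, without overlap. All 21 of them that could be tested rose, but the list was chosen with the rise of such transcripts known from earlier results. Most passed the filter of a mean of 0.5 FPKM only through si-*Fndc1*, as did *Ambp* (0.0208 FPKM in si-Control, 3.58 in si-*Fndc1*). The count of rises was thus close to fixed in advance. *Alb* had 0 to 492 counts in si-Control libraries and 1763 to 11579 in si-*Fndc1*, and *Afp* had 0 counts in all 10. This difference runs along the same groups as every comparison given here, and its part in them was not tested.

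Among the 78 mitochondrial ribosomal protein genes, 21 rose in si-*Fndc1*, 2 fell and 55 did not pass the test (edgeR quasi-likelihood test, adjusted p-value under 0.05 over 13548 genes). Counted in both directions, 29.5% of the members were called, beside 34.4% of all genes tested. Members were called higher in 26.9% of cases, beside 17.3% of all genes, and called lower in 2.56%, beside 17.2%. The share called was thus near the background, and the calls lay mostly in the upward direction. The estimated log2 fold change (si-*Fndc1* over si-Control) was positive in 59 of the 78 members and had a median of 0.123, with quartiles of 0.01 and 0.22. Over all genes tested the median was 0.004. In a bulk sample, more RNA per cell and more cells of a type with more of that RNA cannot be told apart.

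**Figure D1:**
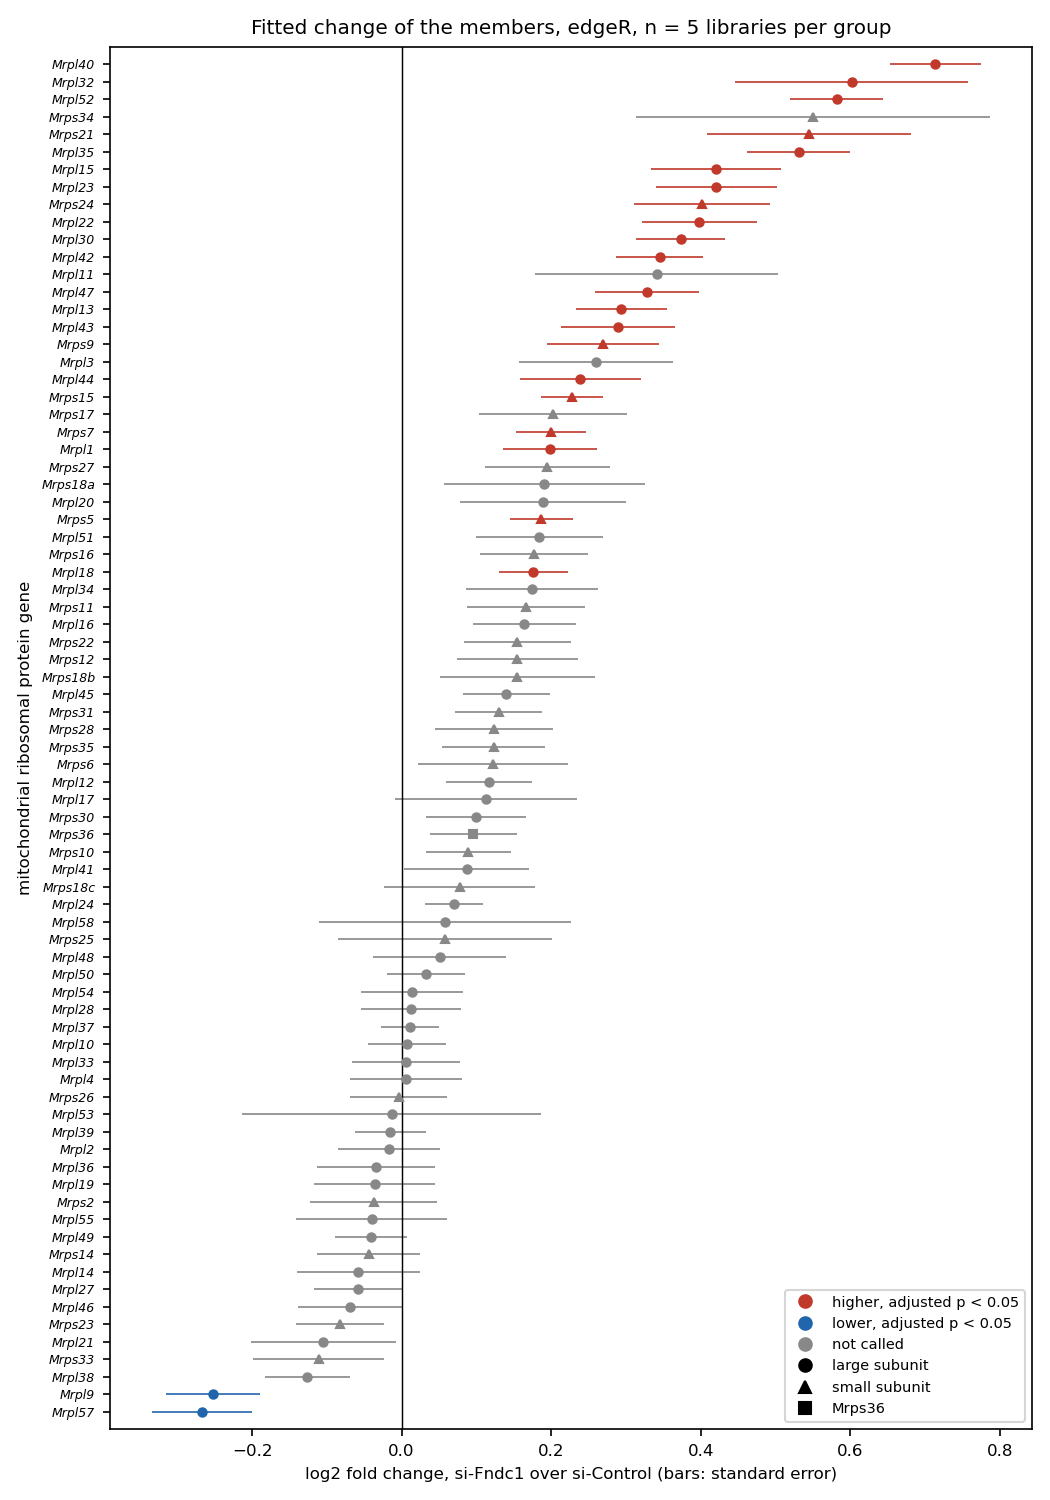
Log2 fold change of each of the 78 members (horizontal axis, si-*Fndc1* over si-Control, from edgeR's quasi-likelihood fit), with bars of 1 standard error, sorted by size, coloured by call and with the marker's shape giving the subunit. Calls to the right of 0 number 21 and calls to the left number 2, and the other 55 members were not called.

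The changes were small. A fold of at least 1.2 in either direction was reached by 18 members and a fold of at least 1.5 by 2, *Mrpl40* and *Mrpl32*. Log2 fold changes ranged from -0.27 for *Mrpl57* to 0.71 for *Mrpl40*. The CPM of the 2 groups did not overlap for 17 members that were higher in si-*Fndc1* and for 2 that were lower. The background for such separation was 12.8% of all genes tested for higher and 12.3% for lower. Among the 23 members called, the groups overlapped for *Mrpl32*, *Mrpl43*, *Mrpl44* and *Mrpl1*.

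The start regions of 4 members are shown, those of both members that rose with the smallest p-values and of both that fell. Some motifs listed below were more frequent in the members' regions than over all genes, a feature the selection did not use. Each run is the coding strand from 250 bases before to 50 bases after the transcription start in RefSeq (build GRCm38.p6), and capitals mark matches to 4 motifs. The motifs were GCGCATGCG (nuclear respiratory factor 1), CCGGAAG (GABP and other ETS factors), AAGATGGCG (YY1) and the E-box CACGTG, each searched on both strands. Both strands of the nuclear respiratory factor 1 motif can match in 1 overlapping run, and a GABP match can share its last bases with a YY1 match. *Mrpl40* lies at chr16:18876588-18876887 on the minus strand, *Mrpl52* at chr14:54426659-54426958, *Mrpl9* at chr3:94443086-94443385 and *Mrpl57* at chr14:57825989-57826288, these last 3 on the plus strand.
Mrpl40: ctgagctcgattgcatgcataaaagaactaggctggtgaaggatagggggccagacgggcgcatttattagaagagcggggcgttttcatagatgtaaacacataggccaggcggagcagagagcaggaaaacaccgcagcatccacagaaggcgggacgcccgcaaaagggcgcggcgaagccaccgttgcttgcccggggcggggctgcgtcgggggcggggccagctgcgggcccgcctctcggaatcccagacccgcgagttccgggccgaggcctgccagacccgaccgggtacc
Mrpl52: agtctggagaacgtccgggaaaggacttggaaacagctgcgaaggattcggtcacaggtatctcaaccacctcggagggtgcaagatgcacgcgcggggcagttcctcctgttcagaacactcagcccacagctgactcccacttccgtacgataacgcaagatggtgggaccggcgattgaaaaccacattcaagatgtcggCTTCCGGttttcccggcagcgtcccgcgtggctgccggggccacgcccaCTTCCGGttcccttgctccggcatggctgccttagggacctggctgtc
Mrpl9: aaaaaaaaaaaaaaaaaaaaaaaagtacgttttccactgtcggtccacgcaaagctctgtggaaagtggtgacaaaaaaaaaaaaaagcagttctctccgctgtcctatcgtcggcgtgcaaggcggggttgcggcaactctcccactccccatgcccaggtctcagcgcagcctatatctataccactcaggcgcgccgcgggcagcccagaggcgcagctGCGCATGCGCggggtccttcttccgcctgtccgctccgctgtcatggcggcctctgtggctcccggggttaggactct
Mrpl57: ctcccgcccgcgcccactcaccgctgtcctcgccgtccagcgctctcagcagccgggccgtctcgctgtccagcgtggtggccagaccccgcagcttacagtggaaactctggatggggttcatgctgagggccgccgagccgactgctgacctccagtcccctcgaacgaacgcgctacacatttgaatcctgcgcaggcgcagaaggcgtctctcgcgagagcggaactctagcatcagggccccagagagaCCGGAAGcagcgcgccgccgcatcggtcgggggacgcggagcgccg

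The *Mrpl40* region held none of the 4 motifs and 28 CpG dinucleotides. That of *Mrpl52* held the GABP motif at bases 204 and 253 of the run, on the reverse strand, the second of them just past the start. That of *Mrpl9* held the nuclear respiratory factor 1 motif on both strands, at bases 223 and 224, and that of *Mrpl57* the GABP motif at base 255. Regions were matched by symbol for 69 of the 78 members and, for comparison, were read for 27025 genes, a gene with several starts holding a motif where any of its regions did. The GABP motif stood in 37.7% of the members' regions (26 of 69) and in 9.93% of all regions. The YY1 motif stood in 11.6% (8 of 69) and 1.64%, and the nuclear respiratory factor 1 motif in 10.1% (7 of 69) and 1.95%. TATAAA stood in 7.25% of the members' regions and 15.7% of all regions, CCAAT in 39.1% and 41.1%, and the E-box in 7.25% and 8.09%. The members' regions also had more CpG dinucleotides, with a median of 21 beside 8, and a higher GC content, with a median of 58.3% beside 53.3%. The 27025 genes were not limited to those expressed in these cells, as the members are. The part of this and of base composition in the motif shares was not tested. Among the 19 members with a region that rose, 5 held the GABP motif (26.3%), beside 21 of the other 50 members (42.0%). The YY1 motif stood in 3 of the 19 (*Mrpl35*, *Mrpl42* and *Mrps24*) and in 5 of the other 50. A match is a run of letters and was not tested as a binding site.

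In the large subunit, 15 of 51 members rose (29.4%) and 2 fell (3.92%), beside 17.3% and 17.2% of all genes tested. The median log2 fold change was 0.10. The rises with the smallest p-values were those of *Mrpl40*, *Mrpl52*, *Mrpl35*, *Mrpl30* and *Mrpl42*. *Mrpl40*, whose protein is found only in mitochondrial ribosomes, had 5.74, 6.44, 6.03, 7.02 and 6.30 FPKM in si-Control. It had 9.87, 10.5, 10.2, 10.7 and 10.2 FPKM in si-*Fndc1*. All 5 si-*Fndc1* libraries lay above all si-Control libraries, and the mean rose from 6.31 ± 0.480 to 10.3 ± 0.331 (SD, n = 5), with a log2 fold change of 0.71 (SE 0.061, edgeR adjusted p = 2.53e-05). The table places *Mrpl40* at chromosome 16, 18690768 to 18695612, on the minus strand. This span does not include the GRCm38.p6 start region given above.

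*Mrpl52*, another protein found only in mitochondrial ribosomes, was among the most abundant members. Its FPKM was 28.1, 35.0, 30.6, 29.1 and 29.5 in si-Control and 46.1, 42.0, 46.9, 46.7 and 45.3 in si-*Fndc1*. The groups did not overlap, and the mean rose from 30.5 ± 2.70 to 45.4 ± 1.98 (log2 fold change 0.58, SE 0.062, edgeR adjusted p = 7.29e-05). *Mrpl35*, of a family that bacterial large subunits also have, was scarce, with 2.78, 2.53, 2.33, 2.32 and 2.40 FPKM in si-Control and 3.42, 3.37, 3.42, 3.89 and 3.68 in si-*Fndc1*. Its groups did not overlap either (log2 fold change 0.53, SE 0.069, edgeR adjusted p = 0.00024).

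*Mrpl30*, also of a bacterial family, had 9.76, 11.0, 9.46, 9.97 and 10.2 FPKM in si-Control and 13.3, 11.6, 12.5, 13.2 and 14.3 in si-*Fndc1*. The lowest si-*Fndc1* value, that of replicate 2, was close to the highest si-Control value, also of replicate 2, and the log2 fold change was 0.37 (SE 0.059, edgeR adjusted p = 0.000777). *Mrpl42*, found only in mitochondrial ribosomes, had 12.2, 13.3, 11.0, 13.1 and 11.7 FPKM in si-Control and 15.4, 14.1, 15.9, 16.1 and 15.8 in si-*Fndc1*. Its groups did not overlap (log2 fold change 0.35, SE 0.058, edgeR adjusted p = 0.00106).

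*Mrpl32* had the second largest log2 fold change of all members but a wide spread. Its protein, of a bacterial family, is known to be trimmed by the m-AAA protease before it joins the ribosome. It had 2.19, 3.50, 1.99, 1.82 and 2.38 FPKM in si-Control and 3.69, 3.22, 3.45, 3.74 and 3.86 in si-*Fndc1*. The value of si-Control replicate 2 lay within the si-*Fndc1* values, so the groups overlapped although the gene rose (log2 fold change 0.60, SE 0.156, edgeR adjusted p = 0.0121). The other large-subunit members that rose were *Mrpl23*, *Mrpl15*, *Mrpl22*, *Mrpl47*, *Mrpl13*, *Mrpl43*, *Mrpl44*, *Mrpl1* and *Mrpl18*, with log2 fold changes from 0.18 for *Mrpl18* to 0.42 for *Mrpl23*. *Mrpl15*, of a bacterial family and among the scarcest of the large subunit, rose from 2.40 ± 0.221 to 3.20 ± 0.334 FPKM (SD, n = 5; edgeR adjusted p = 0.0035).

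Both members that fell belonged to the large subunit. *Mrpl57*, a small protein found only in mitochondrial ribosomes, had 5.94, 6.70, 6.30, 6.13 and 6.01 FPKM in si-Control and 4.64, 4.68, 5.43, 5.52 and 5.39 in si-*Fndc1*. All si-*Fndc1* values lay below all si-Control values (log2 fold change -0.27, SE 0.067, edgeR adjusted p = 0.0103). *Mrpl9*, of a bacterial family, had 20.0, 22.2, 20.1, 21.4 and 20.3 FPKM in si-Control and 17.9, 15.6, 15.7, 18.2 and 19.5 in si-*Fndc1*. The gap between its groups was narrow, with si-*Fndc1* replicate 5 nearest to si-Control (log2 fold change -0.25, SE 0.063, edgeR adjusted p = 0.0103).

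**Figure D2:**
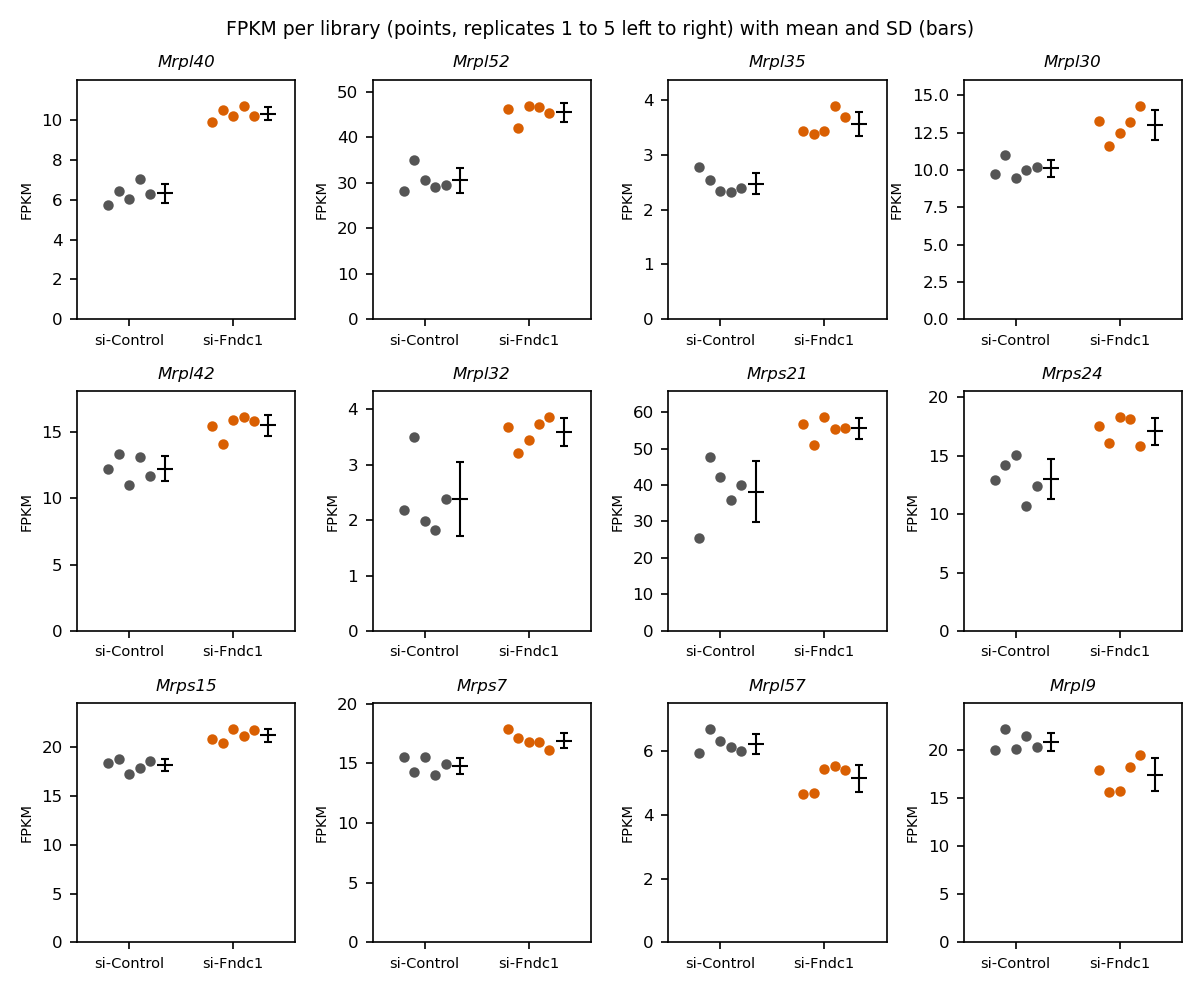
FPKM (vertical axes, starting at 0) of members named in the text in each library (points, replicates 1 to 5 from left to right), with the group mean and SD as bars beside them. The groups are apart for *Mrpl40* and *Mrpl52*, overlap for *Mrpl32* through si-Control replicate 2 (3.50 FPKM), and lie in the opposite order for *Mrpl57* and *Mrpl9*.

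The most abundant member, *Mrpl14*, whose protein sits at the face of the large subunit that meets the small one, had 55.4 ± 3.10 FPKM in si-Control and 52.9 ± 6.69 in si-*Fndc1*. Its log2 fold change of -0.06 (95% confidence interval -0.22 to 0.10, edgeR adjusted p = 0.622) was not distinguishable from 0. The least abundant, *Mrpl48*, had 1.21 ± 0.102 and 1.25 ± 0.130 FPKM, and its log2 fold change of 0.05 (SE 0.089) likewise did not pass the test (edgeR adjusted p = 0.698). *Mrpl48* overlaps *Rab6a* on the other strand, which had 7.79 times its counts, and a pseudogene of *Mrpl48* was listed at 7.44 ± 0.963 FPKM in si-Control, so its level is uncertain. *Mrpl12*, whose protein forms the flexible stalk that contacts translation factors and which also binds the mitochondrial RNA polymerase, had 28.9 ± 2.35 FPKM in si-Control and 31.1 ± 1.34 in si-*Fndc1*. It did not pass the test with all libraries (log2 fold change 0.12, SE 0.057, edgeR adjusted p = 0.139) but did without si-Control replicate 2 (0.16, edgeR adjusted p = 0.0415). *Mrpl58*, a peptidyl-tRNA hydrolase built into the large subunit that frees stalled chains, had 3.41 ± 0.733 and 3.52 ± 0.686 FPKM. Its interval ran from -0.27 to 0.39 on the log2 scale, wider than most. *Mrps30*, a large-subunit protein despite its symbol, had 3.74 ± 0.202 and 3.99 ± 0.345 FPKM (log2 fold change 0.10, edgeR adjusted p = 0.274).

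In the small subunit, 6 of 26 members rose (23.1%) and none fell, beside 17.3% and 17.2% of all genes tested. The median log2 fold change was 0.155, with 21 of the 26 estimates positive. At an unadjusted p-value under 0.05, 10 of the 26 were higher and 0 lower, beside 5989 of all 13548 genes in either direction. DESeq2 and limma called 0 lower as well. With GC content and length corrected, as described further on, 3 were called lower, and 2 with a replicate block added. All 6 that rose, *Mrps15*, *Mrps5*, *Mrps24*, *Mrps7*, *Mrps21* and *Mrps9*, belong to families that bacterial ribosomes share. *Mrps15*, which binds the ribosomal RNA early in assembly, had 18.4, 18.8, 17.3, 17.9 and 18.6 FPKM in si-Control and 20.8, 20.4, 21.9, 21.1 and 21.8 in si-*Fndc1*. The libraries of each group were close together and the groups apart (log2 fold change 0.23, SE 0.041, edgeR adjusted p = 0.00165).

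*Mrps5*, whose bacterial counterpart takes part in the accuracy of decoding, had 4.75, 4.70, 4.66, 4.49 and 4.97 FPKM in si-Control and 5.33, 5.23, 5.30, 5.17 and 5.68 in si-*Fndc1*. This difference of 0.19 on the log2 scale (SE 0.042, edgeR adjusted p = 0.00576) was among the smallest that passed the test, and the groups did not overlap. *Mrps24*, the counterpart of the bacterial S3 protein at the entry of the messenger RNA channel, had 12.9, 14.2, 15.1, 10.7 and 12.4 FPKM in si-Control and 17.5, 16.1, 18.3, 18.1 and 15.8 in si-*Fndc1*. Its si-Control libraries were more spread, and the groups did not overlap (log2 fold change 0.40, SE 0.091, edgeR adjusted p = 0.00608).

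*Mrps7*, a protein of the head of the small subunit, had 15.5, 14.3, 15.5, 14.0 and 14.9 FPKM in si-Control and 17.9, 17.1, 16.8, 16.8 and 16.1 in si-*Fndc1* (log2 fold change 0.20, SE 0.047, edgeR adjusted p = 0.00702). *Mrps21*, the most abundant member of the small subunit, had 25.4, 47.7, 42.1, 36.0 and 39.9 FPKM in si-Control and 56.6, 51.0, 58.6, 55.4 and 55.7 in si-*Fndc1*. Replicate 1 was low and replicate 2 high among its si-Control libraries, and all of them lay below si-*Fndc1* (log2 fold change 0.55, SE 0.136, edgeR adjusted p = 0.00996).

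Other small-subunit members did not pass the test. *Mrps23*, next in abundance and found only in mitochondrial ribosomes, had 30.5 ± 1.99 FPKM in si-Control and 28.6 ± 1.76 in si-*Fndc1* (log2 fold change -0.08, edgeR adjusted p = 0.308). The scarcest, *Mrps35*, had 1.30 ± 0.0909 and 1.41 ± 0.0951 FPKM (log2 fold change 0.12, edgeR adjusted p = 0.197), and *Mrps17* had 2.98 ± 0.323 and 3.41 ± 0.431 FPKM (log2 fold change 0.20, edgeR adjusted p = 0.14). Of the S18 family, of which mammals carry 3 genes, 0 were called by edgeR, DESeq2 or limma, and 0 lay at an unadjusted p-value under 0.05. With GC content and length corrected, 0 were called, but 1 was higher and 1 lower at an unadjusted p-value under 0.05. The corrected log2 fold changes were 0.322 for *Mrps18a*, 0.094 for *Mrps18b* and -0.282 for *Mrps18c*. *Mrps18a*, whose product sits in the large subunit, had 5.88 ± 1.02 and 6.67 ± 1.03 FPKM, with an interval of -0.07 to 0.45 on the log2 scale. *Mrps18b* had 9.92 ± 0.619 and 11.0 ± 1.79 FPKM (interval -0.05 to 0.36), and *Mrps18c* had 14.6 ± 1.73 and 15.4 ± 1.79 FPKM (interval -0.12 to 0.28). All 3 intervals include 0, and each reaches above the smallest rise that passed the test, that of *Mrpl18*. *Mrps36*, of neither subunit, had 19.8 ± 0.701 and 21.0 ± 1.55 FPKM (log2 fold change 0.10, edgeR adjusted p = 0.233).

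Members of bacterial families and members found only in mitochondria were also counted apart. Of 46 members of bacterial families, 16 rose (34.8%) and 1 fell, with a median log2 fold change of 0.170. Of 29 found only in mitochondrial ribosomes, 5 rose (17.2%) and 1 fell, with a median of 0.058. Of all genes tested, 17.3% were called higher and 17.2% lower, so the latter class rose at the background share. When GC content and length were corrected for, as described further on, 12 of 45 members of bacterial families were higher and 4 lower. Of the 29 found only in mitochondrial ribosomes, 7 were then higher and 6 lower, beside 11.3% and 11.4% of all genes. The shares called higher thus lay closer together, while the corrected medians were 0.111 for bacterial families and 0.022 for the others. In the small subunit, edgeR called 0 of the 9 members found only in mitochondria, although 3 were higher at an unadjusted p-value under 0.05 and DESeq2 called 1 of them, *Mrps34*. The difference between the classes was not tested, and 3 members (*Mrpl55*, *Mrps28* and *Mrps36*) were placed in neither class. The largest uncalled estimate was that of *Mrps34*, a small-subunit protein found only in mitochondria, with a log2 fold change of 0.55 and a standard error of 0.237 (edgeR adjusted p = 0.0979). Its FPKM was 3.68 to 5.77 in si-Control, against 4.74 to 6.37 in 4 si-*Fndc1* libraries, and si-*Fndc1* replicate 4 alone had 11.9. Without that library its log2 fold change was 0.25 (edgeR adjusted p = 0.179). *Mrps34* was chosen for mention after its values were seen.

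Per library, the level of the whole family was summarised as the median over members of the log2 ratio of a library's CPM to the si-Control mean. It was -0.01, 0.09, 0.01, -0.04 and -0.03 in si-Control replicates 1 to 5 and 0.08, 0.04, 0.18, 0.19 and 0.09 in si-*Fndc1*. The groups overlapped on this measure because si-Control replicate 2 lay above si-*Fndc1* replicates 1 and 2. Summed over the 78 members, the counts were 2130, 2280, 2170, 2110 and 2110 CPM in si-Control and 2340, 2250, 2410, 2420 and 2390 in si-*Fndc1*. The mean sum was 2160 ± 71.4 CPM in si-Control and 2360 ± 69.8 in si-*Fndc1* (SD, n = 5), a ratio of 1.09. The sum over the large subunit differed by a ratio of 1.09 and that over the small subunit by 1.11. Without si-Control replicate 2, 23 members rose and 2 fell. The FPKM of the members, which divides by length, also summed to 1.09 times as much in si-*Fndc1*. The FPKM of all tested genes summed to 1.11 times as much, so the members' share of the summed FPKM was not raised.

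**Figure D3:**
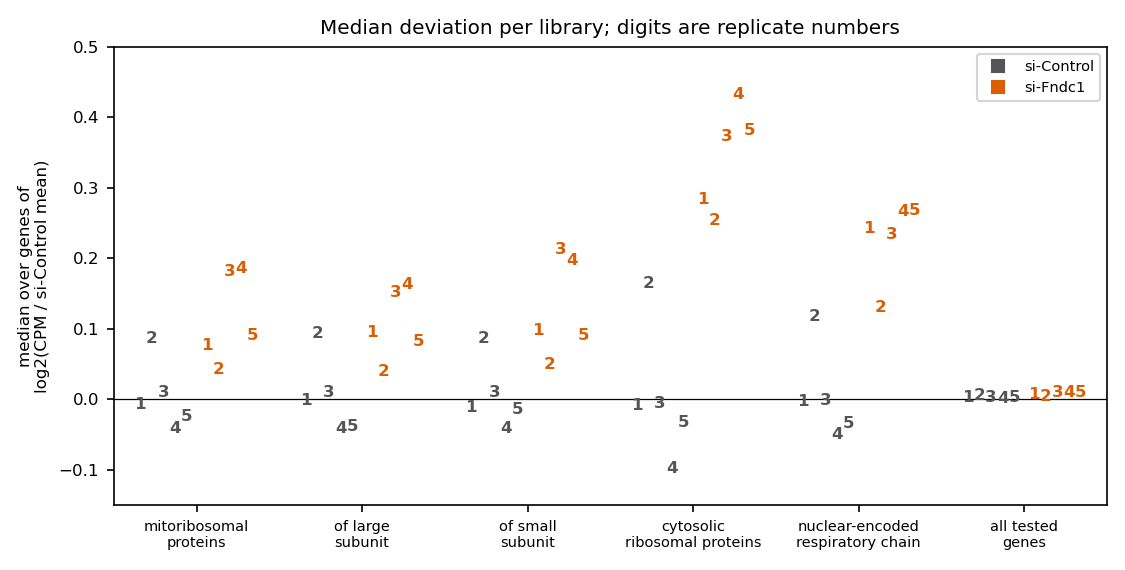
Median over genes of the log2 ratio of each library's CPM to the si-Control mean (vertical axis), for the members, their subunits, cytosolic ribosomal protein genes, nuclear-encoded respiratory chain subunits and all tested genes, digits giving the replicate number. Members of si-Control replicate 2 (0.09) lie among the si-*Fndc1* libraries (0.04 to 0.19), while all tested genes stay at 0.01 or less in every library.

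The cytosolic ribosomal proteins, which build the ribosome outside mitochondria, and the nuclear-encoded subunits of the respiratory chain, which assemble with the products of mitochondrial translation, were set beside the members as descriptions. Of 77 cytosolic ribosomal protein genes tested, 54 rose (70.1%) and 4 fell, with a median log2 fold change of 0.335. Of 82 respiratory chain genes tested, 46 rose (56.1%) and 2 fell, with a median of 0.238. The members' 26.9% and 0.123 were the lowest of the 3 groups, a difference that was not tested. With GC content and length corrected, as described further on, the medians were 0.076 for the members and 0.092 for the respiratory chain genes. That of the cytosolic genes was then 0.276. Library by library, the median deviation of the cytosolic genes was -0.10 to 0.17 in si-Control, against 0.25 to 0.43 in si-*Fndc1*. For these genes too si-Control replicate 2 had the highest value of its group.

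Across all genes the change after knockdown moved with base composition. The Spearman correlation of log2 fold change with GC content was -0.523 and with transcript length -0.196 over 11185 genes with both values, a description across genes that are not independent. Over the 77 members with a GC content the correlation with GC content was 0.0159. Members were shorter, with a median length implied by counts and FPKM of 2663 beside 4940 bases over those 11185 genes, and had a median GC content of 51.5% beside 50.46%. When a smooth trend with GC content and length was removed from every library, 19 of 77 members were higher and 11 lower. Over all 11185 genes, 11.3% were then called higher and 11.4% lower. The median log2 fold change of the members was 0.076 after this correction.

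The split between higher and lower calls thus depended on this choice. Of the 21 members that rose, 14 were still called higher, among them *Mrpl40* (log2 fold change 0.67), *Mrpl52* (0.53), *Mrpl35* (0.37), *Mrps15* (0.16), *Mrps5* (0.15) and *Mrps24* (0.35). The 7 that lost the call were *Mrpl1*, *Mrpl18*, *Mrpl22*, *Mrpl32*, *Mrpl44*, *Mrps21* and *Mrps9*. After correction *Mrps21* had a log2 fold change of 0.36 (edgeR adjusted p = 0.0559) and *Mrpl32* of 0.42 (edgeR adjusted p = 0.0691), while *Mrpl1* and *Mrpl18* were both at -0.01. Both members that fell kept the call with larger differences, -0.48 for *Mrpl57* and -0.39 for *Mrpl9*. Of the members not called before, 9 were now lower, *Mrpl27*, *Mrpl36*, *Mrpl39*, *Mrpl49*, *Mrpl50*, *Mrps14*, *Mrps23*, *Mrps33* and *Mrps36*, and 5 were higher, *Mrpl37*, *Mrps10*, *Mrps16*, *Mrps30* and *Mrps35*. In the small subunit the count of lower calls went from 0 to 3 and in the large subunit from 2 to 7. With the correction, 48 cytosolic ribosomal protein genes were called higher and 3 lower among 75, and 32 respiratory chain genes higher and 12 lower among 81.

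**Figure D4:**
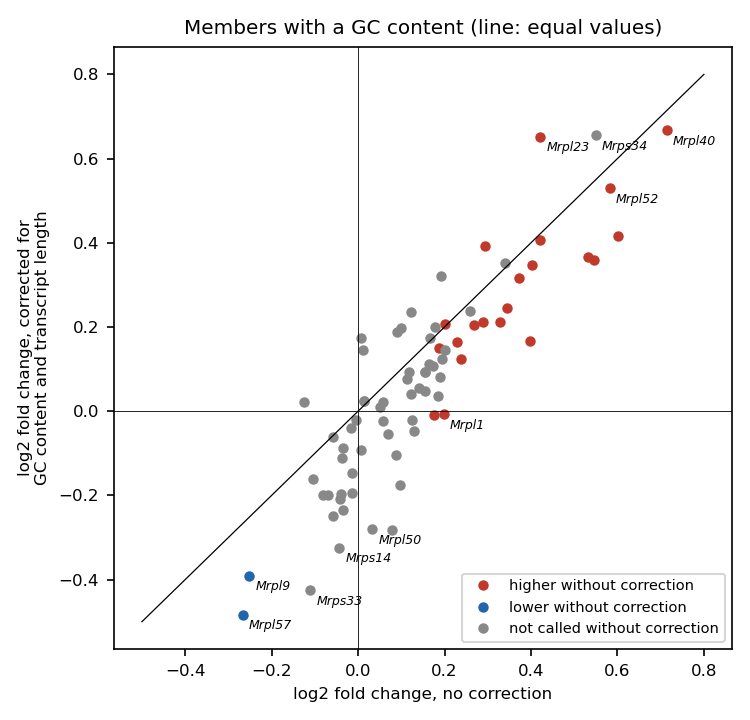
Log2 fold change of 77 members before (horizontal axis) and after (vertical axis) removal of the trend with GC content and length, coloured by the call made without the correction, with the line of equal values. *Mrpl40* and *Mrpl52* stay near the line, while *Mrpl1* moves to -0.01 and *Mrps33* and *Mrps14* to below -0.3.

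Other genes of the pathway were counted from lists. Of 5 structural subunits with other symbols, 2 rose, both of the small subunit. *Chchd1* rose from 17.2 ± 1.22 to 25.9 ± 2.26 FPKM (log2 fold change 0.60, SE 0.071, edgeR adjusted p = 0.00014), and *Ptcd3* had a log2 fold change of 0.35 (edgeR adjusted p = 0.000343). Both kept the call once GC content and length were corrected for, at 0.32 and 0.23. Of 26 assembly factors tested, 4 rose (15.4%) and 3 fell (11.5%), with a median log2 fold change of 0.030, and both shares were below those of all genes tested. *Mterf3*, which limits mitochondrial transcription and takes part in ribosome assembly, rose from 2.69 ± 0.357 to 4.56 ± 0.435 FPKM (log2 fold change 0.77, edgeR adjusted p = 0.000158), and *Ngrn* had 0.33 (edgeR adjusted p = 0.00121). *Mpv17l2* had a log2 fold change of -0.30 (edgeR adjusted p = 0.00645) and *Nsun4*, a methyltransferase that acts on the small subunit RNA and in subunit joining, of -0.62 (edgeR adjusted p = 0.00898). The others called were *Mettl15* (0.53), *Fastkd2* (0.16) and *Dhx30* (-0.31), which all lost the call when GC content and length were corrected for (0.23, -0.002 and -0.055).

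All genes tested were called higher in 17.3% of cases and lower in 17.2%. Of 13 translation factors tested, 1 rose (7.69%) and 1 fell (7.69%). They were *Gfm1*, the elongation factor that moves the ribosome along the messenger RNA, with a log2 fold change of 0.30 (edgeR adjusted p = 0.0014), and *Oxa1l*, which inserts new chains into the inner membrane, with -0.24 (edgeR adjusted p = 0.000648). Of 21 genes of mitochondrial genome expression and its regulators, 5 rose (23.8%) and 3 fell (14.3%). Among them were *Mterf1a*, *Mterf2*, *Ssbp1* and *Esrra*, beside those described next. These 4 lost the call when corrected (0.17, -0.07, 0.11 and 0.03, in that order). *Gabpa*, a subunit of the factor whose motif stood in many of the members' promoters, had a log2 fold change of 0.14 (edgeR adjusted p = 0.00336), which became -0.04 once GC content and length were corrected for. *Tfam*, which packages mitochondrial DNA, had 0.17 (edgeR adjusted p = 0.0226) and 0.04 after correction. *Ppargc1b*, a coactivator of mitochondrial biogenesis, fell with a log2 fold change of -0.69 (edgeR adjusted p = 0.00108), and *Polrmt*, the mitochondrial RNA polymerase, with -0.41 (edgeR adjusted p = 0.0016), or -0.13 after correction (edgeR adjusted p = 0.211). Of the 10 muscle markers 4 rose (40.0%) and 1 fell (10.0%), beside 17.3% and 17.2% of all genes tested. The largest rise was that of *Ckm* (log2 fold change 0.39), then *Tnnt1* (0.36), followed by *Mymk* and *Myod1*. *Cdh15* had -0.18, or 0.03 after correction. With the correction *Mymk* lost its call (0.20, edgeR adjusted p = 0.116). *Myog* was then called lower (-0.18, edgeR adjusted p = 0.0217) and *Des* higher (0.10, edgeR adjusted p = 0.0386). Among the liver transcripts, a list chosen with their rise known, the smallest p-values were those of *Ambp* and *Apoh*, with log2 fold changes of 7.31 and 3.49.

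The counts can be shared with neighbours, since the sources used here do not say whether counting used the strand. By the table's coordinates 21 members overlap a gene with a mean of at least 0.5 FPKM. Of the 21 that rose, 6 are among them and 15 are not, and neither member that fell is. *Mrpl18* shares 645 bases with *Tcp1* on the other strand, which had 6.67 times its counts and a log2 fold change of 0.22 (edgeR adjusted p = 9.2e-05), so its own rise is uncertain. *Mrpl47* overlaps *Actl6a* and *Ndufb5*, *Mrpl43* *Twnk*, *Mrps7* *Gga3* and *Mif4gd*, *Mrpl44* *Wdfy1* and *Mrpl13* *Mtbp*. *Mrps34* overlaps *Mapk8ip3*, with 6.50 times its counts and a log2 fold change of -0.33. The members *Mrps11* and *Mrpl46* start 412 bases apart in opposite directions on chromosome 7 and share 413 bases, and their log2 fold changes were 0.17 and -0.07, neither of which passed the test.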

How the data were processed

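Counts per gene, deposited by the authors without normalization for 10 libraries, were the values tested, and the FPKM deposited beside them gave levels. The paper's methods name TopHat, mm10 and htseq-count and the series description STAR and mm9. The submitters' processing notes list GRCm39, cutadapt 1.9 and FastQC, so the build of the table's coordinates is uncertain. For *Mrpl40*, *Mrpl52* and *Mrpl9* they do not match the GRCm38.p6 start regions. The table starts *Mrpl52* at 54664366, and its GRCm38.p6 region starts at 54426659. How FPKM was computed is not given in the sources used here.

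The count test was edgeR 4.0.16 (quasi-likelihood, TMM) in R 4.3.3 on 13548 genes whose FPKM averaged 0.5 or more, all 5 libraries a group and no covariates, with Benjamini-Hochberg adjustment over all of them. All 78 members passed this filter. *Fndc1* was tested by exact permutation of FPKM. Alternatives were DESeq2 1.42.0, which the paper names, limma 3.58.1 on log2(FPKM + 1) or log2(FPKM + 0.1), other filters and scalings, a replicate block, libraries left out, and an offset for GC content (longest coding transcript, NCBIM37) and implied length, fitted per library by Huber regression on splines of 5 degrees of freedom. The count test was tried on simulated data. Tables were handled in Python 3.11.15.

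Members and lists were chosen with earlier results of these data known. Genes named with statistics are, per subunit, up to 5 rises and 5 falls of smallest p-value and the 2 members of highest and of lowest mean FPKM, then the 3 largest changes, the S18 family, *Mrpl12*, *Mrpl58*, *Mrps30* and *Mrps36*, and from each other list up to 2 rises and 2 falls.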

Additional observations from a re-analysis of the deposited data

Results flagged for a closer look

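Of 90 groups of 5 libraries examined for the genes named, 3 held a library far from the others by Dixon's test, which chance gives for about 1 group in 20. *Mrps34* was at 11.9 FPKM in si-*Fndc1* replicate 4, beside 4.74 to 6.37 in the other 4 libraries. *Mpv17l2* was at 17.5 FPKM in the same library, beside 15.1 to 15.5. *Nsun4* was at 4.22 FPKM in si-*Fndc1* replicate 2, beside 2.34 to 2.61.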

How the results depend on the processing

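With GC content and length corrected, 11 members were lower in place of 2, and with that correction plus a replicate block 13 were higher and 8 lower. The same genes tested without the correction, a setting added after seeing the data, gave 21 and 2, so the correction and not the smaller gene set moved the counts. Under this correction 4 members changed sign with a call on either side, *Mrps36* (-0.175 corrected), *Mrpl1* (-0.007), *Mrpl18* (-0.009) and *Mrpl50* (-0.28), as did *Gabpa* (-0.043, also with the block), *Cdh15* (0.027, also with the block), *Fastkd2*, *Mterf2*, *Esrra*, *Polg*, *Yy1* and *Des* of the other lists. Leaving out 1 library at a time gave 19 to 23 members higher, 2 to 2 lower and a median of 0.105 to 0.143, and the *Fndc1* ratio was 0.729 to 0.772. A replicate block gave 18 higher and 2 lower. Same-numbered libraries of the groups showed no shared deviation (correlations of their deviations -0.0553 to 0.0643, and 2 of 10 libraries correlating best with their own number). This cannot tell whether they were prepared in pairs. With DESeq2 23 members were higher, without a filter 19, and with a mean FPKM of at least 5 14. This last filter left fewer members to test, removing called ones such as *Mrpl35* (mean 3.01 FPKM) and *Mrpl15* (2.80). Of the 23 calls, 14 were made in every alternative in which the member was tested, 12 higher (*Mrpl13*, *Mrpl15*, *Mrpl23*, *Mrpl30*, *Mrpl35*, *Mrpl40*, *Mrpl42*, *Mrpl43*, *Mrpl52*, *Mrps7*, *Mrps15* and *Mrps24*) and 2 lower. The calls of *Mrpl1* and *Mrpl44* were each made in 10, of 20 and 21 alternatives. *Tfam* lost its call without si-Control replicate 4 (0.15), si-Control replicate 5 (0.16) or si-*Fndc1* replicate 1 (0.15). At the depth of these libraries every member had at least 189 counts in each. Over all tested genes together, the spread between libraries was above sampling noise in all 20 pairs within groups. This spread limits what can be called, and it was not compared with sampling noise member by member.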

Other observations

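The 2 ribosomal RNAs that the mitochondrial ribosomal proteins assemble with were looked at after the other results. *mt-Rnr1*, of the small subunit, ranged from 203 to 247 FPKM in si-Control libraries and from 256 to 326 in those of si-*Fndc1*, with means of 225 ± 16.3 and 293 ± 25.1 (SD, n = 5). *mt-Rnr2*, of the large subunit, had 268 to 316 and 387 to 464 FPKM, with means of 298 ± 17.8 and 421 ± 28.4. The groups did not overlap for either, and both rose (log2 fold changes 0.39 and 0.51, edgeR adjusted p = 0.00116 and 8.1e-05). Neither has a GC content among the values used for the correction, and libraries selected for poly(A) capture such RNAs only in part, so these levels are those of the captured fraction.

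Of 6 pseudogene rows of the family, which the rule left out, *Mrpl27-ps* had 7.55 ± 0.840 FPKM in si-Control and 8.69 ± 1.27 in si-*Fndc1*, and *Mrpl48-ps* had 7.44 ± 0.963 and 9.40 ± 1.08. Reads of these and of *Mrpl23-ps1* can be shared with *Mrpl27*, *Mrpl48* and *Mrpl23*, whose levels carry that uncertainty. *Mrps36-ps3* had 0 counts in every library.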
